A study of Homo sapiens with 4 samples.

Results

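The genes followed here belong to cell junctions and the apical surface of epithelia, 10 in all: the claudins CLDN3, CLDN4, CLDN6, CLDN7 and CLDN10, occludin (OCLN), the tight junction scaffold ZO-1 (TJP1), EPCAM, the polarity protein CRB3 and the desmosomal protein plakophilin 3 (PKP3). They were taken by gene symbol from an RNA-seq table of 58365 rows, in which all 10 had a single row. The table covered 4 libraries of H1, an established human embryonic stem cell line, collected at day 2 of hematopoietic differentiation. All of the cells received activin A and BMP4 in mTeSR1-based medium. They also received either DMSO, the vehicle (2 libraries), or IWP2, an inhibitor of the acyltransferase Porcupine that blocks the secretion of Wnt ligands (2 libraries). The comparison asked which transcripts depended on Wnt secretion while the cells left pluripotency. H1 is 1 line, and the sources do not say whether libraries of a group came from separate cultures, so the tests measure only the spread between these libraries. Levels are in FPKM, a fragment density scaled by transcript length and by library depth, which can be compared between genes. Depth was not given. The values of single-exon genes inside a fixed range taken to hold 1 fragment put it at roughly 16900000 to 21100000 fragments a library. The choice of that range bounds the estimate, so it is only a rough guide.

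Human embryonic stem cells grow as an epithelium. Claudins and occludin span the membrane at the tight junction and ZO-1 anchors them to actin, while the Crumbs proteins help to set the apical side and the desmosome holds neighbouring cells together. When epiblast cells become mesoderm at the primitive streak they undergo an epithelial-mesenchymal transition (EMT), in which transcription factors of the SNAI and ZEB families bind the E-box sequence CACCTG or its reverse complement CAGGTG and repress genes of epithelial junctions.

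That E-box was therefore looked for in the 250 bases before the transcript starts of the 10 genes, on both strands. RefSeq promoters on GRCh38.p14 were at hand for 8 of them, with 14 starts; EPCAM and PKP3 were not matched. The 6 letters were present before 5 of the 14 starts, in 4 genes (CLDN7, OCLN, TJP1 and CRB3), and in 17.5% of all 35116 windows of that length. The CRB3 window held 5 copies and 1 CLDN7 window held 4, and 0.46% of all windows held 3 or more. The windows of CLDN3, CLDN4, CLDN6 and CLDN10 did not hold these letters. The sites below are shown because they are the letters the EMT repressors are known to bind; of the 5 in the CRB3 window, 3 that do not overlap are given. Each is written 5′ to 3′ on the strand of its gene with the E-box in capitals. The TJP1 site lay upstream of the gene, and the others lay in bases annotated as untranslated sequence of another transcript. A match is a description of the sequence and not a bound site.
OCLN, first start (chr5:69492502-69492531, + strand, 33 bases before the start): ccatccgagtttCAGGTGaattggtcaccg
OCLN, second start (chr5:69492645-69492674, + strand, 133 bases before the start): tctaggacgcagCAGGTGggactcgcggcg
TJP1, first start (chr15:29969120-29969149, - strand, 88 bases before the start): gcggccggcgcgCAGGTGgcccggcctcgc
CLDN7, second start (chr17:7262635-7262664, - strand, 174 bases before the start): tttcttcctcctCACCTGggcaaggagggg
CLDN7, second start (chr17:7262596-7262625, - strand, 135 bases before the start): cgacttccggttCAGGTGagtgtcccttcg
CLDN7, second start (chr17:7262481-7262510, - strand, 20 and 9 bases before the start): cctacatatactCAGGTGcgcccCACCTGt
CRB3 (chr19:6464031-6464060, + strand, 228 bases before the start): atgctcgcaatgCAGGTGtaaggtccccct
CRB3 (chr19:6464112-6464141, + strand, 147 bases before the start): ggggtcccgttaCAGGTGcgcccacagcgc
CRB3 (chr19:6464199-6464228, + strand, 60 bases before the start): agtgcgctctccCAGGTGagtgactaaact
The same windows were searched for AACNGGTT and AACCNGTT, the core bound by the Grainyhead-like (GRHL) factors of epithelia, which was in 0 of the 14 windows and in 1.5% of all windows. The TATA box TATAAA, or TTTATA on the other strand, was likewise in 0 of the 14 and in 10.7% of all windows.

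With IWP2, 5 of the 10 genes rose (CLDN3, CLDN4, CLDN6, CLDN10 and TJP1) and 0 fell. Among all 15980 genes tested with limma, 5.81% were called higher and 7.35% lower at an adjusted p under 0.05. The other 5 (CLDN7, OCLN, EPCAM, CRB3 and PKP3) did not pass that threshold. At an unadjusted p under 0.05 all 10 genes were higher and 0 were lower, where 13.1% of all tested genes were higher and 15.6% lower. Every one of the 10 had both IWP2 libraries above both DMSO libraries, which was so for 27.6% of all tested genes. The median log2 difference over the 10 genes was 1.08, and over all tested genes it was -0.01. Differences are on the log2(FPKM + 1) scale, which understates those of low genes, and 3.2% of tested genes had a difference of 1 or more. With 2 libraries against 2, an exact two-sided permutation test of a single gene cannot go below 0.333, so the calls rest on the spread that limma shares across genes.

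**Figure D1:**
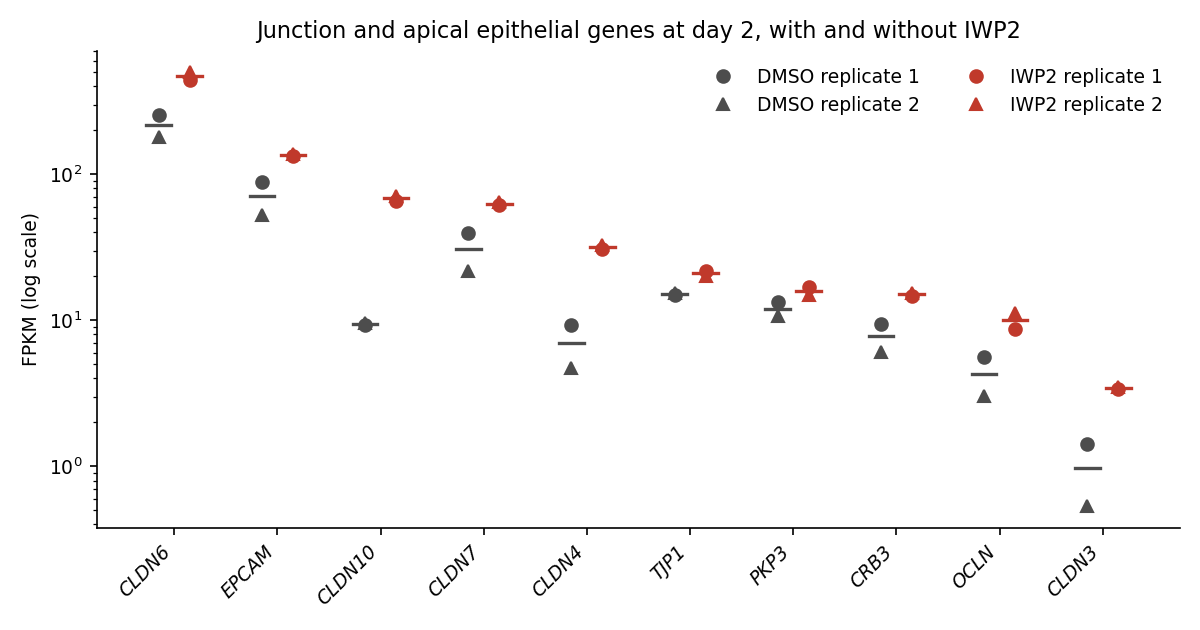
Level of each of the 10 genes in each library, in FPKM on a log axis; points are libraries (circle, replicate 1; triangle, replicate 2), grey for DMSO and red for IWP2, and bars are group means. In all 10 genes both red points lie above both grey points, and the grey points lie farther apart than the red ones for CLDN3 and CLDN4.

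CLDN10, whose isoforms form ion-selective pores between cells, differed most among the 10. It stood at 9.33 and 9.55 FPKM in the DMSO libraries and at 66.0 and 71.5 FPKM in the IWP2 libraries. The libraries of a group lay close together and the groups far apart. The means were 9.44 ± 0.156 and 68.7 ± 3.86 FPKM (SD, n = 2 each), a ratio of 7.28, and the log2 difference was 2.74 (SE 0.09, 95% interval 2.51 to 2.97, limma adjusted p = 0.000439). The gene spans chr13:95433604-95579759 (GRCh38, + strand). DZIP1 lies across part of it on the opposite strand, at 12.3 and 15.8 FPKM with DMSO and 14.1 and 14.4 FPKM with IWP2. CLDN10-AS1, also opposite, was at 0.124 FPKM or less. The overlaps given here are of whole gene spans, and shared exon bases were not looked at. Whether counting used strand is not stated, so reads from any shared bases cannot be told apart.

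CLDN4 and CLDN3 are related barrier-forming claudins, the receptors of Clostridium perfringens enterotoxin, whose genes lie 29.3 kb apart on chromosome 7 (CLDN3 at chr7:73768997-73770270, - strand; CLDN4 at chr7:73799542-73832693, + strand). CLDN4 was at 9.22 and 4.75 FPKM with DMSO and at 31.0 and 33.0 FPKM with IWP2. It was about as high in both IWP2 libraries, and the lower DMSO library was the second. The ratio of the means was 4.58 and the log2 difference 2.11 (SE 0.28, interval 1.40 to 2.82, limma adjusted p = 0.0119). CLDN3 was the lowest of the 10 genes, at 1.42 and 0.536 FPKM with DMSO and 3.39 and 3.50 FPKM with IWP2. By the rough depth estimate, this single-exon gene of 1274 bases rested on about 35, 12, 91 and 81 fragments in the same order. Its ratio was 3.53 and its log2 difference 1.21 (SE 0.25, interval 0.56 to 1.85, limma adjusted p = 0.0408). With a pseudocount of 0.1 in place of 1 the CLDN3 difference was 1.85 and the call was lost.

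CLDN6, a claudin of early embryonic epithelia and of pluripotent stem cells, was the most abundant of the 10. Its levels were 255 and 179.9 FPKM with DMSO and 444 and 498 FPKM with IWP2. The groups did not overlap, and the ratio of the means (217 ± 53.2 and 471 ± 38.2 FPKM) was 2.17. The log2 difference was 1.13 (SE 0.18, interval 0.67 to 1.59, limma adjusted p = 0.0202). The span of TNFRSF12A, on the opposite strand, overlaps that of CLDN6 (chr16:3014712-3020071, - strand). TNFRSF12A stood at 51.8 and 36.6 FPKM with DMSO and at 107 and 128 FPKM with IWP2. Its part in the CLDN6 value was not tested.

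CLDN7, a claudin found along the lateral membrane and known to bind EPCAM, was at 39.4 and 21.8 FPKM with DMSO and 61.5 and 64.2 FPKM with IWP2. The ratio was 2.05 and the log2 difference 1.07 (SE 0.27, interval 0.38 to 1.76), which did not pass the threshold (limma adjusted p = 0.0660). Replicate 1 minus replicate 2 was 0.82 on the log2 scale for DMSO and -0.06 for IWP2. ELP5 on the opposite strand, at 44.3 to 51.9 FPKM over the 4 libraries, overlaps CLDN7 (chr17:7259903-7263983, - strand).

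Occludin and ZO-1 complete the tight junction genes. OCLN (chr5:69492292-69558104, + strand), which helps to seal the junction, was at 5.59 and 3.02 FPKM with DMSO and 8.79 and 11.3 FPKM with IWP2. The ratio was 2.33 and the log2 difference 1.09 (SE 0.27, interval 0.40 to 1.78, limma adjusted p = 0.0640), short of the threshold. TJP1 (chr15:29699367-29968865, - strand) was at 15.02 and 15.5 FPKM with DMSO and 21.9 and 20.2 FPKM with IWP2. Its groups were tight and its difference was small, with a ratio of 1.38 and a log2 difference of 0.44 (SE 0.10, interval 0.19 to 0.68, limma adjusted p = 0.0464). TJP1 passed in 6 of the 10 alternative settings that used all 4 libraries.

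EPCAM, an adhesion protein found over the surface of undifferentiated human embryonic stem cells, was second in level. It was at 88.3 and 53.0 FPKM with DMSO and 133 and 138 FPKM with IWP2, with a ratio of 1.92. The log2 difference was 0.97 (SE 0.24, interval 0.36 to 1.59, limma adjusted p = 0.0623). Its gene lies at chr2:47345158-47387601 (+ strand). As for CLDN7, the first DMSO library was the higher and the IWP2 libraries lay close together.

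CRB3, the Crumbs protein of the apical membrane in many epithelia, was at 9.51 and 6.04 FPKM with DMSO and 14.6 and 15.4 FPKM with IWP2. The ratio was 1.93 and the log2 difference 0.90 (SE 0.21, interval 0.37 to 1.43, limma adjusted p = 0.0534). At chr19:6463777-6467221 (+ strand) it is overlapped on the opposite strand by SLC25A23 (20.9 and 17.96 FPKM with DMSO, 30.9 and 29.7 FPKM with IWP2) and DENND1C (6.96 and 2.66, then 9.31 and 8.25 FPKM). Both neighbours were also higher in the IWP2 libraries, and their part in the CRB3 value was not tested. PKP3 (chr11:392614-404908, + strand), an armadillo-repeat protein of the desmosomal plaque, was at 13.3 and 10.7 FPKM with DMSO and 16.9 and 14.8 FPKM with IWP2. Its log2 difference of 0.38 (SE 0.14, interval 0.01 to 0.74, limma adjusted p = 0.164) was the smallest of the 10.

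**Figure D2:**
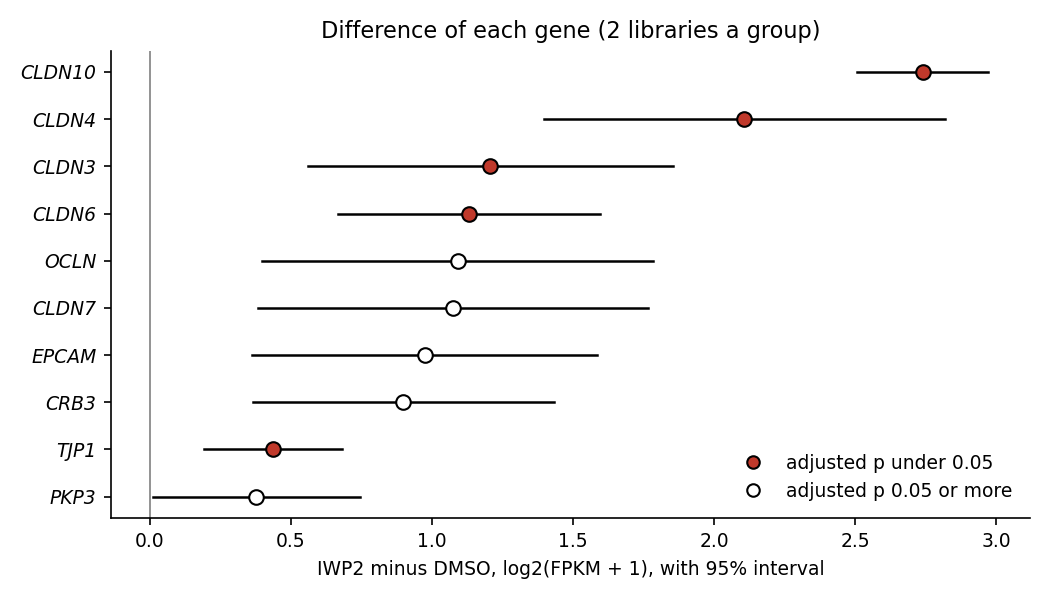
Difference of each gene, IWP2 minus DMSO, on the log2(FPKM + 1) scale with its 95% interval from limma (2 libraries a group); filled points have an adjusted p under 0.05. The points run from 0.38 for PKP3 to 2.74 for CLDN10, and the interval of TJP1 is narrow where that of the larger CLDN7 difference is wide.

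The calls depended on each library, and so did the size of several differences. With a library left out, the log2 difference ran from 1.69 to 2.52 for CLDN4 and from 0.66 to 1.48 for CLDN7. For TJP1 it ran from 0.38 to 0.49. CLDN10 was called in all 10 alternative settings with 4 libraries and PKP3 in none of them. With a library left out the CLDN10 difference was 2.68 to 2.79. The difference of each gene was above 0 in all 140 alternatives run over the 10 genes. Because the libraries of the groups did not overlap in these genes, only the scaling settings could have turned its sign. In bulk RNA a lower level can come from fewer cells of a type or from less RNA per cell, and these cannot be told apart.

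The order of the 10 genes changed at a few places between the groups. With DMSO it ran CLDN6, EPCAM, CLDN7, TJP1, PKP3, CLDN10, CRB3, CLDN4, OCLN and CLDN3. The libraries of CLDN10 and CRB3, of CRB3 and CLDN4, and of CLDN4 and OCLN overlapped, so these neighbours were not separated. With IWP2 it ran CLDN6, EPCAM, CLDN10, CLDN7, CLDN4, TJP1, PKP3, CRB3, OCLN and CLDN3, and of the neighbours in this order PKP3 and CRB3 overlapped. CLDN10 thus stood at rank 6 with DMSO and at rank 3 with IWP2, and CLDN4 at ranks 8 and 5.

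Claudins combine into junctions of differing permeability, so their make-up was also read as shares of the summed FPKM of 22 claudin genes. The sum was 373 and 264 FPKM with DMSO and 639 and 702 FPKM with IWP2. CLDN6 held most of it throughout, with 68.3% and 68.1% in the DMSO libraries and 69.5% and 71.0% in the IWP2 libraries. The share of CLDN10 was 2.50% and 3.62% with DMSO and 10.3% and 10.2% with IWP2, and that of CLDN4 was 2.47% and 1.80%, then 4.86% and 4.70%. CLDN11, best known from myelin and the testis, went the other way, from 7.58% and 7.27% to 0.409% and 0.517%. CLDN7 stayed between 8.27% and 10.5% in all 4 libraries. CLDN12 held 4.16% and 5.46% with DMSO and 2.70% and 2.03% with IWP2, at levels of 14.3 to 17.3 FPKM that overlapped between the groups. CLDN8, CLDN14 and CLDN17 were listed at 0 in every library. No test was made of shares.

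**Figure D3:**
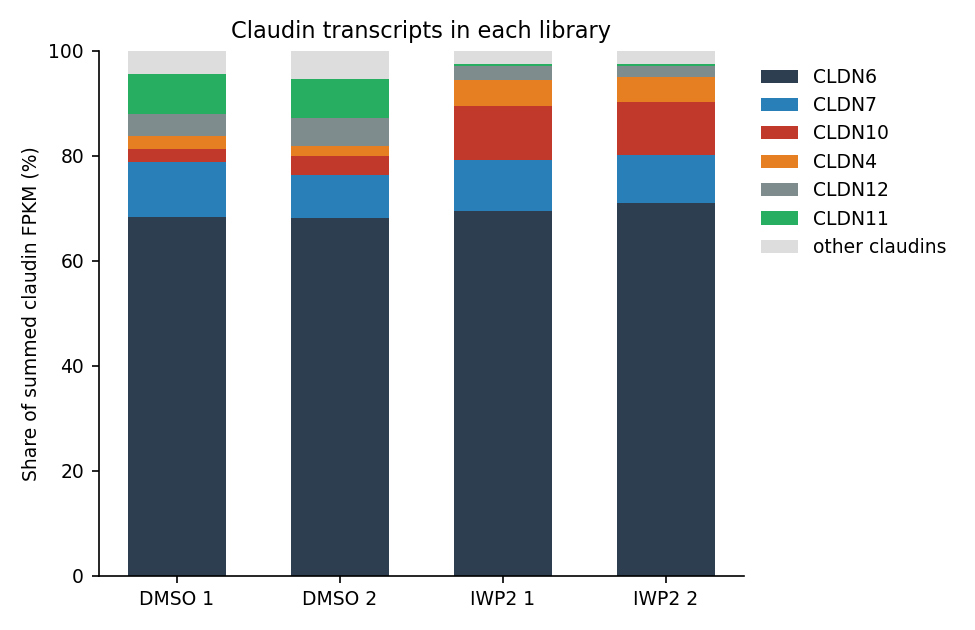
Share of each claudin in the summed FPKM of 22 claudin genes (percent, from 0), 1 bar a library. CLDN6 takes 68.1% to 71.0% of every bar, and CLDN10 and CLDN4 take more, and CLDN11 and CLDN12 less, of both IWP2 bars.

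Among the other claudins that were tested the pattern was not that of the 10 genes. Of 17 listed, 6 were high enough to be tested, 2 of them fell, and 0 rose (0 also at an unadjusted p under 0.05). CLDN11 was at 28.3 and 19.2 FPKM with DMSO and at 2.61 and 3.63 FPKM with IWP2, a log2 difference of -2.57 (limma adjusted p = 0.00441). CLDN1, a claudin of the skin barrier, was at 2.46 and 2.03 FPKM, then at 0.810 and 0.952 FPKM (-0.78, limma adjusted p = 0.0445). The median log2 difference of the 6 was -0.09. Among those too low to test, CLDN9 and CLDN20 had both IWP2 libraries above both DMSO libraries, and CLDN2 and CLDN16 had both below.

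The other tight junction proteins moved both ways. Of 18 tested, 2 rose, 3 fell and 13 did not pass, with a median of 0.17. At an unadjusted p under 0.05, 9 were higher and 4 lower. The balance of the calls changed with the setting, to 4 higher and 2 lower with quantile normalization, 4 and 3 with the libraries rescaled to 1 common sum or with a minimum mean of 1 FPKM, 3 and 1 without the intensity trend, 5 and 2 with a replicate block, 0 and 1 without a filter, 2 and 0 without DMSO replicate 1, and 0 and 0 without any of the other libraries. The scaffold CGN (cingulin) was at 14.99 and 11.1 FPKM with DMSO and at 33.2 and 30.0 FPKM with IWP2 (log2 difference 1.23, limma adjusted p = 0.0117). MAGI1, another scaffold, rose by 1.03 (adjusted p = 0.0135). The cingulin relative CGNL1 went from 21.2 and 21.4 FPKM to 8.67 and 7.45 FPKM (-1.30, adjusted p = 0.00412), and the angiomotin-like protein AMOTL1 fell by 0.62 (adjusted p = 0.0331).

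Of 19 tested polarity proteins 4 rose, 1 fell and 14 did not pass, with a median of 0.24. The calls were 1 higher and 0 lower without a filter, and 3 and 1 without the intensity trend. With a minimum mean of 1 FPKM or with a replicate block they were 4 and 0. PODXL (podocalyxin), a sialomucin of the apical surface, was at 166 and 76.5 FPKM with DMSO and 505 and 442 FPKM with IWP2 (2.06, limma adjusted p = 0.0258). EZR (ezrin), which ties the apical membrane to actin, was at 82.2 and 80.6 FPKM, then 136 and 141 FPKM (0.76, adjusted p = 0.00554). PARD6A of the Par complex rose by 1.35 (adjusted p = 0.0239). CRB2, the relative of CRB3, was low throughout and fell, from 1.22 and 1.99 FPKM to 0.280 and 0.190 FPKM (-1.06, adjusted p = 0.0391). Among 7 tested desmosome proteins PKP4 rose by 0.47 (adjusted p = 0.0305) and DSP (desmoplakin) fell by 0.88 (adjusted p = 0.0151). The other 5 did not pass, and the median was -0.17. The desmosome calls were 0 higher and 2 lower with the libraries rescaled to 1 common sum. They were 0 and 1 without the intensity trend, and 0 and 0 without a filter.

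Of 24 other epithelial genes tested, 14 rose, 0 fell (0 also at an unadjusted p under 0.05) and 10 did not pass, and 23 had both IWP2 libraries above both DMSO libraries. The median log2 difference was 0.93. CDH1 (E-cadherin), the adherens junction cadherin, was at 32.6 and 29.7 FPKM with DMSO and at 120.4 and 124 FPKM with IWP2, a ratio of 3.93 (log2 difference 1.94, SE 0.09, limma adjusted p = 0.00071). GRHL2, a transcription factor of epithelial junction genes, was at 2.45 and 1.80 FPKM, then 11.4 and 10.8 FPKM (1.96, adjusted p = 0.00332). KRT7, a keratin of simple epithelia, was at 0.833 and 0.864 FPKM, then 5.85 and 8.22 FPKM (2.10, adjusted p = 0.0047). The surface glycoprotein CD24 rose by 1.05 (adjusted p = 0.00276).

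The abundant keratins KRT8, KRT18 and KRT19, which were picked out after their values were seen, did not pass. KRT8 was at 694 and 590.3 FPKM with DMSO and at 714 and 727 FPKM with IWP2. Over the lists of other claudins, tight junction, polarity, desmosome and epithelial genes together 21 rose and 7 fell. Without DMSO replicate 1 these counts were 20 and 1, without DMSO replicate 2 they were 5 and 1, and without IWP2 replicate 1 or 2 alone they were 1 and 0, CDH1 being called in all of these.

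**Figure D4:**
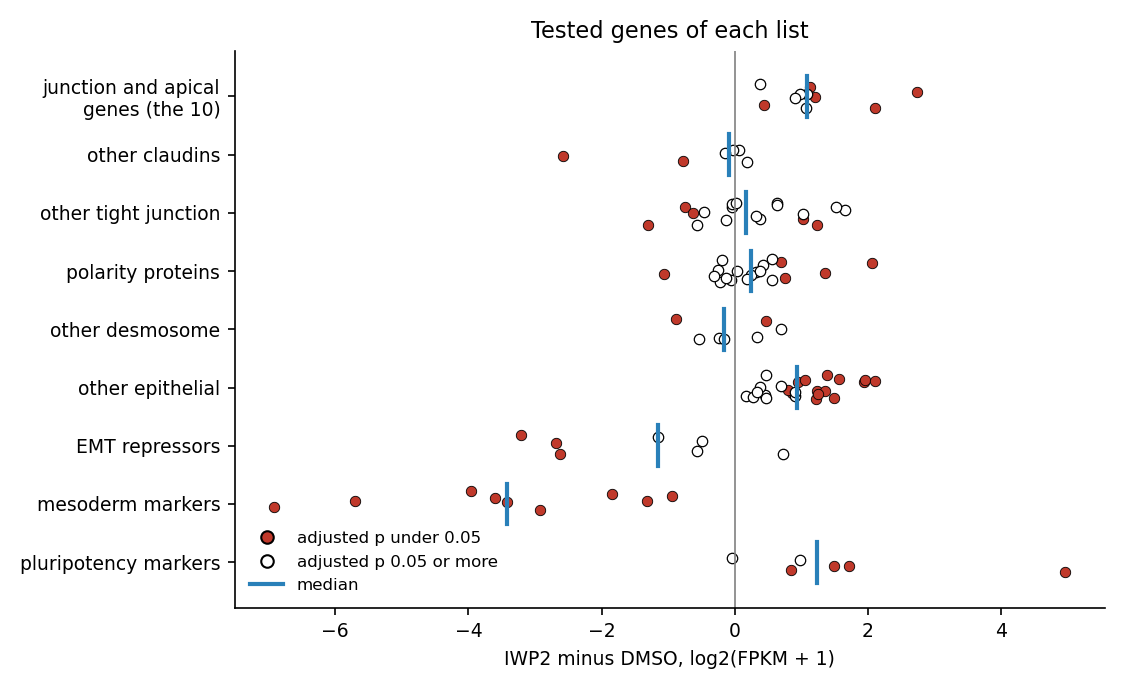
Difference of each tested gene of each list, IWP2 minus DMSO on the log2(FPKM + 1) scale; filled points have a limma adjusted p under 0.05 and the blue lines are medians. The 10 genes (median 1.08) and the other epithelial genes (0.93) lie to the right of 0, the other claudins, tight junction, polarity and desmosome lists straddle it, and the mesoderm markers (-3.41) lie to the left.

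SNAI1, SNAI2 and ZEB2, which are known as repressors of junction genes, fell with IWP2. SNAI1 was at 34.8 and 43.5 FPKM with DMSO and at 5.27 and 5.71 FPKM with IWP2 (log2 difference -2.62, limma adjusted p = 0.00106). SNAI2 was at 14.4 and 19.0 FPKM, then 0.792 and 1.02 FPKM (-3.20, adjusted p = 0.0012). ZEB2 was at 7.07 and 12.7 FPKM, then 0.533 and 0.729 FPKM (-2.69, adjusted p = 0.00635). ZEB1 was at 1.70 and 2.88 FPKM, then 0.280 and 0.664 FPKM, and narrowly missed the threshold (-1.15, adjusted p = 0.0501). Of the 7 SNAI, ZEB and TWIST genes, all tested, 3 fell, 0 rose (1, SNAI3, at an unadjusted p under 0.05) and 4 did not pass. SNAI3 was at 0.443 and 0.568 FPKM, then 1.69 and 1.31 FPKM (0.73, limma adjusted p = 0.0660). Without the intensity trend 1 of the 7 was called higher and 3 lower. Without an IWP2 replicate, either of them, 0 of the 7 were called.

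Of 8 Wnt target genes 6 fell with IWP2 and 0 rose (0 also at an unadjusted p under 0.05), and RNF43 and ZNRF3 did not pass. The part of a change in cell types in these falls was not tested. AXIN2, a feedback target of the pathway, was at 14.2 and 15.2 FPKM with DMSO and at 6.45 and 5.58 FPKM with IWP2 (-1.16, limma adjusted p = 0.00638). SP5 fell by 5.22 (adjusted p = 0.00031). LEF1 (-3.14), NKD1 (-4.12) and DKK1 (-4.24) also fell (limma adjusted p = 0.00149 or less). The labelled differentiation was seen in the mesoderm markers of the DMSO libraries, where T (Brachyury) was at 21.6 and 18.5 FPKM against 9.40 and 10.4 FPKM with IWP2 (-0.94, adjusted p = 0.0115). All 9 tested mesoderm markers fell. APLNR (-6.91), EOMES (-3.41), MIXL1 (-3.60) and MESP1 (-5.70) had the smallest p of these (limma adjusted p = 0.000648 or less). The 10 listed summed to 1132 and 1440.4 FPKM with DMSO and to 150.4 and 173 FPKM with IWP2, with MSGN1 at 0 in both IWP2 libraries. With a library left out, 4 of the Wnt targets and 4 to 8 of the mesoderm markers were called lower, and AXIN2 and T were not called in any of these 4 fits. Of 5 tested endoderm genes 4 fell, and 4 of 6 pluripotency genes and 3 of 7 amnion and surface ectoderm genes rose. Without IWP2 replicate 1 or 2 alone these counts were 1, 1 and 0, without DMSO replicate 2 they were 3, 2 and 2, and without DMSO replicate 1 they were 3, 4 and 3. The part of any change in cell types in the levels of the 10 genes was not tested. GATA1, one of the listed endothelial and blood markers, was at 0 in all 4 libraries.

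The DMSO libraries also differed from each other in these genes. Of the 10 genes 8 were higher in DMSO replicate 1 than in DMSO replicate 2, where 49.7% of all tested genes were, and the median log2 difference between these libraries was 0.62 over the 10 genes and 0 over all tested genes. CLDN10 (-0.03) and TJP1 (-0.04) were level between them. The other epithelial genes shifted the same way, 23 of 24 being higher in DMSO replicate 1 (median 0.44). The mesoderm markers shifted the other way, with 1 of 9 higher in DMSO replicate 1 (median -0.39), as did the 7 EMT repressors, with 0 of 7 (median -0.38). Between the IWP2 libraries 2 of the 10 genes were higher in replicate 1, where 47.6% of all tested genes were, and the median was -0.07. Whole libraries correlated at r = 0.975 within DMSO, 0.981 within IWP2 and 0.938 to 0.948 between the groups, across the tested genes on the log2 scale. The part of this shift in the calls of the 10 genes was not tested beyond leaving out each library.

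**Figure D5:**
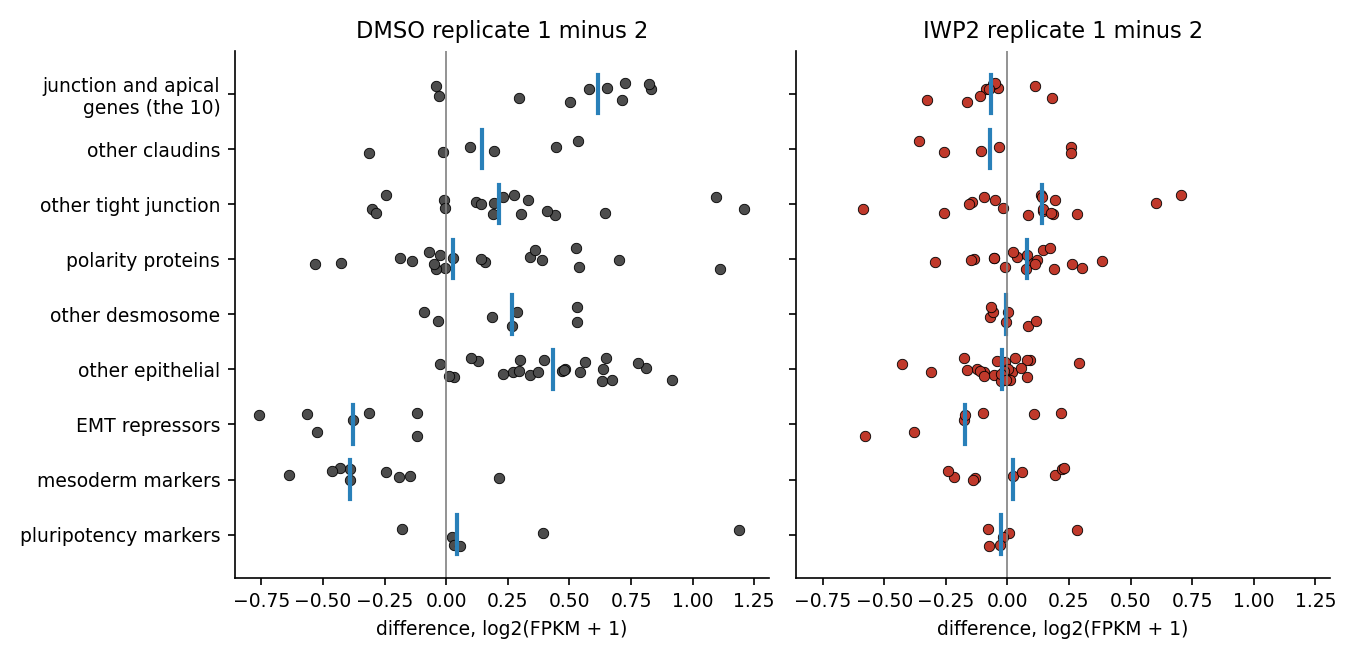
Difference between the libraries of a group, replicate 1 minus replicate 2 on the log2(FPKM + 1) scale, for each tested gene of each list (left, DMSO, grey; right, IWP2, red); blue lines are medians. On the left the 10 genes (0.62) and the other epithelial genes (0.44) lie above 0 and the EMT repressors (-0.38) and mesoderm markers (-0.39) below it, and on the right the medians of these lists lie nearer to 0.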

How the data were processed

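RNA-seq was made from 4 libraries of H1 cells, 2 with DMSO and 2 with IWP2, grouped by the sample titles. Table columns named as lacking IWP2 were taken as the DMSO group, with the replicate numbers the columns carry. RNA was extracted with Trizol and libraries were built with the TruSeq RNA kit. The authors deposited FPKM values per gene, normalised for transcript length and depth, with replicates kept apart. The table's header names no unit, and FPKM was taken from its description and values. The submitters' processing notes name BWA, Bowtie and RSEM without versions, and the build hg19, but 97.3% of the 58102 gene IDs found in GENCODE 29 had its GRCh38 position, so GRCh38 is used here. Which tool made the values and whether counting used strand are not given in the sources used here. FPKM can change with the other genes in a library, since all share its depth.

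From these values, log2(FPKM + 1) was tested with limma 3.58.1 in R 4.3.3 (empirical Bayes with an intensity trend) for the 15980 genes with a mean of at least 0.5 FPKM over the 4 libraries, and p-values were adjusted by Benjamini-Hochberg over all of them. Calls were made at an adjusted p under 0.05 and intervals are at 95%. The script was tested on simulated data. Beside the 10 genes, the text names up to 4 called genes with the smallest p of each list, the most abundant tested gene where fewer than 2 were called, and SNAI1, SNAI2, ZEB1, ZEB2, CDH1, AXIN2 and T. The 10 genes and the lists were chosen with earlier results of these data known. NANOG, LIN28A, TFAP2C, GATA3, ISL1 and KRT17 were named after their values were seen. So were SNAI3, RNF43, ZNRF3, CLDN2, CLDN9, CLDN16 and CLDN20. The pseudocount, filter, scaling, prior, replicate block and each library were varied. Motifs were searched as exact letters in RefSeq promoters. The precision of the FPKM values is limited by a depth that could be estimated only roughly.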

Additional observations from a re-analysis of the deposited data

How the results depend on the processing

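All 140 alternatives of the 10 genes and all 643 of 46 other named genes kept their direction. For a gene whose groups did not overlap, only the scaling settings could have turned it. NANOG, LIN28A, TFAP2C, GATA3, ISL1 and KRT17 were not among the 46 and were not run through these settings. The groups of LIN28A, ISL1 and KRT17 overlapped. Scaling moved the median of all genes by less than 0.1 (log2). Without a filter on low values, 1 of the 10 genes was called higher, 118 of all genes were higher and 263 lower, and of the other junction and epithelial genes 4 were higher and 1 lower. With each library rescaled to 1 common sum, 8 of the 10 genes were called higher, with 888 of all genes higher and 1259 lower. In that setting TJP1 lost its call (limma adjusted p = 0.0761), and CLDN7, OCLN, EPCAM and CRB3 gained one. With each library left out in turn, 1 to 7 of the 10 genes were called higher, 18 to 286 of all genes higher, 76 to 410 lower, and of the other junction and epithelial genes 1 to 20 higher and 0 to 1 lower. Here each fit has fewer libraries, and the lone library of a group is assumed to vary like the other group's. For the remaining moves the cause was not tested. Of the 5 called genes, 1 (CLDN10) was called in all 10 settings with 4 libraries and in all 4 with 3. Of the 41 other named genes that were called, 20 and 11 were.

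With the replicate number as a block, 6 of the 10 genes were called higher, with 842 of all genes higher and 1059 lower, and of the other junction and epithelial genes 27 higher and 4 lower. The labels do not say what the numbers share. Deviations of same-numbered libraries correlated at 0.14 across 15980 genes, over only 2 pairs, so the numbers were not taken to pair the libraries. The planned edgeR test was not run because the table holds no counts. By the rough depth estimate CLDN3 rested on about 12 to 91 fragments a library, and no such estimate was made for the other 9 genes.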

Other observations

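Lists of other early cell types moved beside the junction genes. Of 6 pluripotency genes 4 rose and 0 fell (0 also at an unadjusted p under 0.05 with limma). POU5F1 (OCT4) was at 751 and 571 FPKM with DMSO and at 1854 and 1844 FPKM with IWP2, a log2 difference of 1.50 (limma adjusted p = 0.00559). SOX2 was close to 0 with DMSO, at 0.193 and 0.174 FPKM, and at 35.6 and 36.1 FPKM with IWP2 (4.96, adjusted p = 0.00031). PRDM14 and DPPA4 rose by 1.72 (adjusted p = 0.00383) and 0.85 (adjusted p = 0.00409). NANOG, at 23.0 and 9.54 FPKM with DMSO and 33.6 and 27.5 FPKM with IWP2, did not pass (0.98, limma adjusted p = 0.183). LIN28A did not pass either (-0.05, limma adjusted p = 0.746), and its groups overlapped. The 6 genes summed to 1116 and 911 FPKM with DMSO and 2315 FPKM in each IWP2 library. Without DMSO replicate 2, 2 of them were called higher, and without IWP2 replicate 1 or 2 alone 1 was.

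Of 5 tested endoderm genes 4 fell and 0 rose (0 also at an unadjusted p under 0.05). CER1, a secreted inhibitor of Nodal, BMP and Wnt signals, was at 1612 and 2048 FPKM with DMSO and at 38.6 and 34.2 FPKM with IWP2 (-5.60, limma adjusted p = 0.00031), and FOXA2, CXCR4 and HHEX fell by 2.18, 1.94 and 1.27. Without DMSO replicate 1 or 2 alone 3 endoderm genes were called lower, and without IWP2 replicate 1 or 2 alone 1 was. Of 12 genes of amnion and surface ectoderm 7 were tested, 3 rose and 0 fell (0 also at an unadjusted p under 0.05), with a sum of 101 and 81.8 FPKM with DMSO and 149 and 155 FPKM with IWP2. IGFBP3 was at 2.18 and 1.49 FPKM, then 16.4 and 18.3 FPKM (2.70, adjusted p = 0.00153), and TFAP2A and GABRP rose by 1.22 (adjusted p = 0.0118) and 1.16 (adjusted p = 0.0146). Without DMSO replicate 2, 2 of the amnion and surface ectoderm genes were called higher, and without IWP2 replicate 1 or 2 alone 0 were. GATA3 was at 39.7 and 43.7 FPKM with DMSO and 34.6 and 37.7 FPKM with IWP2, and did not pass (-0.20, limma adjusted p = 0.253). Nor did ISL1 (-0.09), KRT17 (0.62) or TFAP2C (1.14). The epidermal keratins KRT5 and KRT14 were at 0 in all 4 libraries. The 7 trophoblast genes were too low to test, with sums of 0.186 to 0.663 FPKM. Of the neural genes TUBB3 was the highest, at 152 and 99.7 FPKM with DMSO and 93.3 and 82.8 FPKM with IWP2, and did not pass, and SOX1 was at 0.0355 FPKM or less. KDR, an early vascular and mesodermal receptor, fell by 0.60 (adjusted p = 0.0237), and GATA1 was at 0 in every library.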
